A study of Mus musculus with 4 samples.

Results

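The EGF receptor family and its ligands were followed on 4 expression arrays of mouse skin cells, of which 2 came from pups with a day of miR-203 induction. The genes were chosen by name: the receptors Egfr, Erbb2 and Erbb3, the ligands Areg, Ereg, Hbegf, Tgfa, Btc and Epgn, and the receptor inhibitor Errfi1. All probe sets annotated to exactly 1 of these 10 genes were taken, which gave 21 of the 45101 probe sets on the array. They stood for 9 genes, since none was annotated to Areg, which is not analysed here. A level filter, set so that the 40% of probe sets with the lowest mean (below 4.17) were left out, kept 20 of the 21, each of them above that level on every array, and all 9 genes.

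The induced animals carried K14-rtTA (the rtTA activator, which needs doxycycline, under the keratin 14 promoter), TRE-miR-203 (the doxycycline-responsive miR-203 transgene) and K14-H2BGFP (a nuclear green fluorescent protein under the keratin 14 promoter). The controls, labelled WT and uninduced, were littermates that carried TRE-miR-203 and K14-H2BGFP without the activator, so effects of the activator and of miR-203 cannot be told apart. All were FVB pups at postnatal day 4, 24 h after a doxycycline injection that the labels describe for both groups, and cells were sorted from the skin through a gate not given in the sources used here. There were 2 induced and 2 control arrays, labelled as biological replicates. The keratin 14 promoter is active in basal keratinocytes and the outer root sheath of the hair follicle, so induction is driven there and not in every skin cell.

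ErbB receptors are tyrosine kinases that pair with each other when a ligand binds. Egfr binds the ligands studied here, Erbb2 binds no known ligand and acts as a partner, and Erbb3 has little kinase activity of its own and signals through its partner. The ligands are made as membrane-anchored precursors and released by ADAM proteases. In skin the pathway keeps basal keratinocytes dividing, and mice that lack Tgfa or carry weak Egfr alleles have wavy hair. A microRNA lowers its targets through pairing of its seed, bases 2 to 8, with their transcripts. The mature arms of the induced microRNA, shown because they define the treatment, are given 5′ to 3′ from RefSeq (GRCm38.p6, plus strand of chromosome 12) with the seed in capitals. The 3p arm is at chr12:112130927-112130948 and the 5p arm at chr12:112130889-112130910.
mmu-miR-203-3p: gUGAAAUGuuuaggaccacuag
mmu-miR-203-5p: aGUGGUUCuugacaguucaaca

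Values are log2 units of the robust multi-array average (RMA), a summary of the probes of a set after background correction and normalization between arrays. The 4 arrays had medians of 4.74 to 4.79. Pearson's r across the 27022 kept probe sets was 0.994 between the induced arrays, 0.995 between the control arrays and 0.991 to 0.993 between groups. The keratins Krt5, Krt14, Krt1 and Krt10 had values of 13.6 to 14.3 on every array, so the defining markers of the labelled tissue were present. Induced replicate 1 stood apart in sex-linked transcripts: the Y-linked gene Eif2s3y reached a log2 value of 9.38 there and 2.72 in induced replicate 2, against 2.82 and 2.52 in the controls. Xist, the transcript of the inactive X chromosome, was at 5.86 there and 11.19 in induced replicate 2, against 10.57 and 10.80 in the controls. By these transcripts the sexes were not balanced between the groups. Differences without induced replicate 1 are given below for the members they moved by over 1.5 times. On these bulk arrays, fewer cells of a type and less RNA per cell cannot be told apart.

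No probe set of the family passed the threshold of an adjusted p under 0.05 in limma, a linear model fitted across all kept probe sets, and neither did any of the 27022 (0% called). Among the members the adjusted p ran from 0.217 to 0.996. The 5 measured ligand genes nonetheless all had higher means in the induced arrays, by 0.14 to 0.58 log2 units (49.6% of all genes). This holds for the probe set with the highest mean of each gene. Of all 9 kept ligand probe sets, 7 had higher means and 2, both of Tgfa, had lower ones. Among the receptors Erbb3 and Erbb2 had higher means and Egfr did not. Of the 20 kept probe sets, 7 had both induced arrays above both controls, a state shared by 20.9% of all kept probe sets, and 1 had both below, shared by 18.2%. At an unadjusted p under 0.05 there were 4, all higher (Ereg, Tgfa, Erbb3 and Epgn), where 5.41% of all kept probe sets were higher and 4.69% lower at that level.

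**Figure D1:**
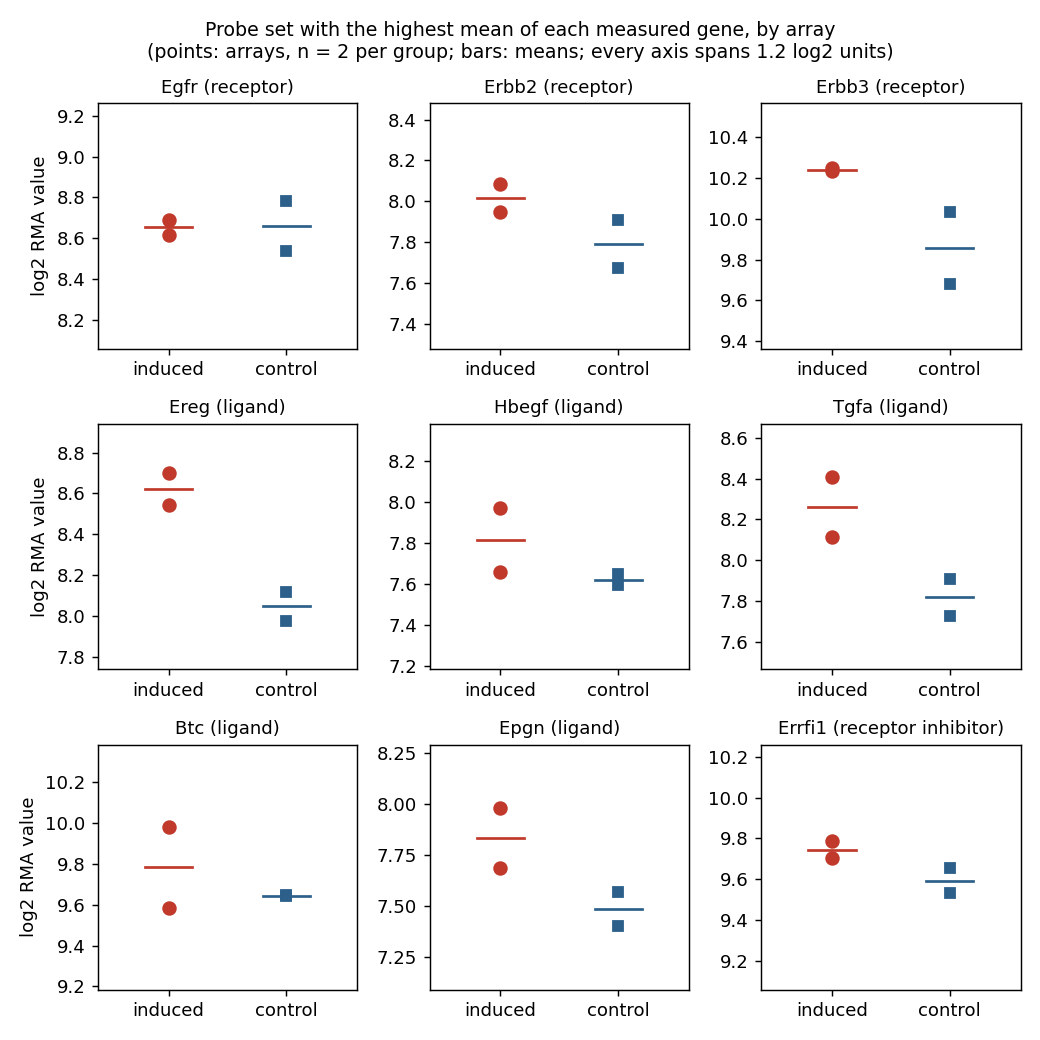
Log2 RMA value (vertical axis) of the probe set with the highest mean of each of the 9 measured genes, with 2 induced arrays (circles) left of 2 control arrays (squares) and bars at the group means. Each axis spans the same number of log2 units; the groups lie apart for Erbb2, Erbb3, Ereg, Hbegf, Tgfa, Epgn and Errfi1 and overlap for Egfr and Btc.

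Ereg encodes epiregulin, a ligand that binds Egfr and Erbb4. Its single probe set had log2 values of 8.54 and 8.70 in the induced arrays, against 7.98 and 8.12 in the controls. Both induced arrays lay above both controls, with a gap wider than the spread within either group. The means were 8.62 ± 0.11 in induced and 8.05 ± 0.10 in control arrays (SD, n = 2 each). This is a difference of 0.58 ± 0.11 (SE), or 1.49-fold, with a limma 95% interval from 1.23-fold to 1.80-fold before adjustment and an adjusted p of 0.217. Across all 11 alternatives the difference stayed between 0.50 and 0.65, and the adjusted p between 0.0726 and 0.739. Ereg ranked 293rd of the 27022 probe sets by absolute test statistic, and no other member ranked higher.

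Tgfa encodes transforming growth factor alpha, a principal Egfr ligand of keratinocytes and hair follicles. It had 3 kept probe sets, all designed from the same sequence record, and they did not move alike. Probe set 1421943_at had values of 8.11 and 8.41 in the induced arrays, against 7.73 and 7.91 in the controls. Its groups did not overlap, and the difference was 0.44 ± 0.14 (SE, 1.36-fold, adjusted p = 0.387 in limma). Probe set 1421942_s_at had values of 5.03 and 4.92 in the induced arrays, against 5.08 and 5.44 in the controls. Here both induced arrays lay below both controls, by a mean of -0.29 ± 0.14 (adjusted p = 0.587 in limma), which makes it the 1 member probe set with the groups apart in that direction. Its difference was -0.47 without control replicate 1 and -0.11 without control replicate 2. Probe set 1450421_at had values of 5.13 and 5.13 in the induced arrays, against 5.12 and 5.16 in the controls, a difference of -0.01 ± 0.09. With the mean of the 3 probe sets in place of 1421943_at the gene's difference was 0.05, so its direction rests on the probe set with the highest mean.

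Epgn encodes epigen, a low-affinity Egfr ligand. Its single probe set had values of 7.98 and 7.69 in the induced arrays, against 7.57 and 7.40 in the controls. The groups lay apart, though induced replicate 2 exceeded control replicate 1 by less than the spread between the induced arrays. The difference was 0.35 ± 0.14 (SE, 1.27-fold, adjusted p = 0.481 in limma). It was 0.20 without induced replicate 1, the array with the Y-linked transcript, and 0.49 without induced replicate 2.

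Hbegf encodes heparin-binding EGF-like growth factor, which keratinocytes make during wound closure. Its probe set 1418350_at had values of 7.97 and 7.66 in the induced arrays, against 7.65 and 7.59 in the controls, so that induced replicate 2 lay only just above the higher control. The difference was 0.20 ± 0.13 (adjusted p = 0.697 in limma), and it was 0.04 without induced replicate 1 and 0.35 without induced replicate 2. The other probe set, 1418349_at, came from the same sequence record and had values of 7.03 and 6.71 in the induced arrays, against 6.84 and 6.69 in the controls. Its groups overlapped, at 0.10 ± 0.14, and the difference was -0.06 without induced replicate 1, 0.27 without induced replicate 2, 0.026 without control replicate 2 and 0.18 without control replicate 1.

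Btc encodes betacellulin, a ligand of Egfr and Erbb4. Probe set 1435541_at had values of 9.98 and 9.59 in the induced arrays, against 9.64 and 9.65 in the controls. The induced arrays lay on either side of the controls, and the mean difference of 0.14 ± 0.15 (adjusted p = 0.839 in limma) became -0.06 without induced replicate 1 and 0.34 without induced replicate 2. Probe set 1421161_at had values of 8.66 and 8.40 in the induced arrays, against 8.41 and 8.11 in the controls, with a difference of 0.27 ± 0.15 (adjusted p = 0.618 in limma) that was 0.14 without induced replicate 1, 0.12 without control replicate 2 and 0.42 without control replicate 1. Its groups overlapped by a margin smaller than the last digit given. In the RefSeq gene table of GRCm38, Epgn, Ereg, Areg and Btc follow one another on chromosome 5 with no other protein-coding gene listed between them. The 3 measured genes of this cluster had differences of 0.35 (Epgn), 0.58 (Ereg) and 0.14 (Btc), all with higher induced means.

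Erbb3 was the receptor with the largest difference. Probe set 1434606_at had values of 10.25 and 10.23 in the induced arrays, against 9.68 and 10.03 in the controls. Both induced arrays lay above both controls, and nearly all of the spread was between the controls (SD 0.25, against 0.01 in the induced arrays, n = 2 each). The difference was 0.38 ± 0.14 (SE, 1.30-fold, adjusted p = 0.446 in limma), and it was 0.21 without control replicate 1. The other probe set, 1452482_at, had values of 4.86 and 4.79 in the induced arrays, against 4.94 and 4.57 in the controls. Its groups overlapped, with a difference of 0.07 ± 0.14 that was -0.11 without control replicate 2, 0.25 without control replicate 1 and 0.036 without induced replicate 1.

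Erbb2, the receptor that serves as partner to the others, had values of 7.95 and 8.09 in the induced arrays, against 7.67 and 7.91 in the controls, in its single probe set. The groups lay apart by less than the spread within either group, with a difference of 0.23 ± 0.12 (SE, 1.17-fold, 95% interval 0.947-fold to 1.44-fold, adjusted p = 0.615 in limma). It was 0.11 without control replicate 1 and 0.34 without control replicate 2.

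Egfr itself had overlapping groups in all of its 6 kept probe sets. Probe set 1435888_at had values of 8.62 and 8.69 in the induced arrays, against 8.54 and 8.78 in the controls, both induced values lying between the controls. The difference was -0.01 ± 0.12 (SE, adjusted p = 0.996 in limma), with a 95% interval from 0.812-fold to 1.22-fold, so that larger changes in this probe set lie outside the interval. It was 0.031 without induced replicate 1. Probe set 1424932_at, with values of 7.55 and 7.89 in the induced arrays, against 7.62 and 7.78 in the controls, differed by 0.02 ± 0.14, and by 0.19 without induced replicate 1. Probe set 1460420_a_at, with 7.19 and 7.42 in the induced arrays, against 7.14 and 7.37 in the controls, differed by 0.05 ± 0.13, and by 0.16 without induced replicate 1. The other 3 kept probe sets (1432647_at, 1451530_at and 1454313_at) had differences of 0.05, -0.02 and -0.01, which were 0.024, -0.24 and -0.15 without induced replicate 1. The 7th, 1457563_at, had values of 2.91 to 3.19 on the 4 arrays, below the filter level, and was not tested.

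Errfi1 encodes MIG6, a feedback inhibitor that binds the Egfr kinase domain and is itself induced by signalling through the receptor. Probe set 1416129_at had values of 9.79 and 9.70 in the induced arrays, against 9.53 and 9.65 in the controls. The groups lay apart by a small margin, with a difference of 0.15 ± 0.10 (SE, 1.11-fold, adjusted p = 0.700 in limma), and it was 0.091 without control replicate 1. The other probe set, 1419816_s_at, had values of 7.18 and 7.28 in the induced arrays, against 7.12 and 7.26 in the controls, and overlapping groups (0.04 ± 0.11), with 0.094 without induced replicate 1.

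**Figure D2:**
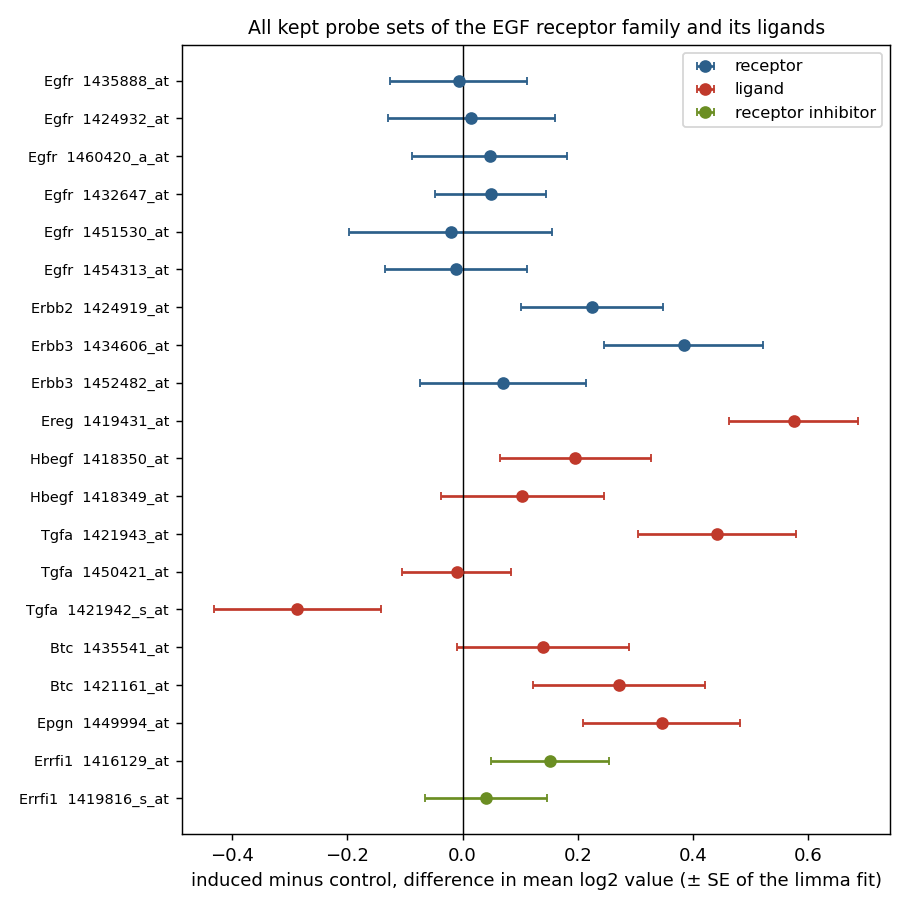
Difference in mean log2 value, induced minus control (horizontal axis), with the standard error of the limma fit, for the 20 kept probe sets, coloured by role. All 6 Egfr probe sets lie within 0.05 of 0, Ereg lies farthest to the right at 0.58, and the 3 Tgfa probe sets spread from -0.29 to 0.44.

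With each gene represented by its probe set with the highest mean, the median difference was 0.35 over the 5 measured ligands and 0.23 over the 3 receptors, against -0.00 over all 13489 genes. Both induced arrays lay above both controls for 4 of the 5 ligands (all but Btc), 2 of the 3 receptors (all but Egfr) and Errfi1, where 20.1% of all genes were in that state and 19.3% in the opposite one. A higher induced mean was seen in 8 of the 9 measured genes, against 49.6% of all genes, and a lower one in Egfr alone, against 50.4%. Whether ligands and receptors differed in their response was not tested. When each gene's probe sets were averaged, the ligand median was 0.21. Without induced replicate 1 it was 0.20. In that case the remaining induced array lay above both controls in 10 of the 20 kept probe sets, against 36.3% of all, and without induced replicate 2 in 13, against 34.8%. Without control replicate 1 the induced arrays lay above the remaining control in 11, against 37.7%, and without control replicate 2 also in 11, against 34.5%. The receptor median was 0.11 without control replicate 1 and 0.34 without control replicate 2.

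The other genes of the pathway, in lists drawn up by role, had 0 members past the threshold in either direction in limma. Genes that respond to ERK signalling, among them its feedback inhibitors, had higher induced means in 13 of 14 measured members (49.6% of all genes), with a median of 0.19. When each gene's probe sets were averaged, that median was 0.12. In 8 of the 14 both induced arrays lay above both controls (20.1% of all genes), and in 0 below (19.3%). Dusp6, a phosphatase that inactivates ERK, had values of 7.82 and 8.11 in the induced arrays, against 7.46 and 7.62 in the controls (0.43 ± 0.13, 1.34-fold, adjusted p = 0.395 in limma). Spry2, an inhibitor of receptor tyrosine kinase signalling, had values of 5.71 and 6.08 in the induced arrays, against 5.60 and 5.44 in the controls (0.38 ± 0.15, adjusted p = 0.494 in limma), and its other probe set differed by 0.20 ± 0.10. Without induced replicate 2 the difference was 0.28 for Dusp6 and 0.19 for Spry2. The nuclear ERK phosphatase Dusp5 differed by 0.21 ± 0.10. Spred1, a further inhibitor of the Ras-MAPK pathway, was the 1 member with a lower induced mean (-0.21 ± 0.13), in overlapping groups. At an unadjusted p under 0.05 there were 2 of the 14 higher and 0 lower, where 4.4% of all genes were higher and 5.23% lower.

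Of the ligand sheddases and their regulators, 5 of 8 measured genes had both induced arrays above both controls, against 20.1% of all genes, with a median of 0.09 that was 0.043 without induced replicate 2 and 0.14 without induced replicate 1. Adam17, the protease that releases most of these ligands, had values of 9.43 and 9.34 in the induced arrays, against 9.08 and 9.24 in the controls (0.22 ± 0.11, adjusted p = 0.565 in limma). It was 0.14 without control replicate 1, and its other probe sets differed by 0.07 ± 0.09 and 0.03 ± 0.10, the last in overlapping groups. Rhbdf2, an iRhom that brings ADAM17 to the cell surface, differed by 0.19 ± 0.12 and Adam12 by -0.28 ± 0.15, the last in overlapping groups. Rhbdf2 was at 0.10 without control replicate 1 or without induced replicate 2, and Adam12 at -0.17 without control replicate 1, -0.45 without induced replicate 1 and -0.11 without induced replicate 2.

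The Ras-MAPK transducers had a median of 0.08 over 11 measured genes, 5 of them apart and higher (20.1% of all genes) and 3 apart and lower (19.3%). The median was 0.16 without induced replicate 1 and 0.046 without induced replicate 2. The small GTPase gene Nras differed by 0.27 ± 0.10 and the adaptor genes Gab1 by 0.27 ± 0.11 and Grb2 by 0.22 ± 0.11, though the other probe set of Grb2 had -0.23 ± 0.12. Gab1 was at 0.16 without control replicate 1 and Grb2 at 0.12 without control replicate 2. All 9 measured PI3K, PLC and STAT transducers had higher induced means (49.6% of all genes), with a median of 0.09 and 4 apart and higher (20.1% of all genes). Leaving out control replicate 2 gave a median of 0.057, and leaving out induced replicate 2 gave 0.16. The phospholipase gene Plcg1 differed by 0.22 ± 0.10, with 0.01 ± 0.11 in its other probe set, and the PI3-kinase catalytic subunit genes Pik3ca by 0.23 ± 0.11 and Pik3cb by 0.21 ± 0.12. Without control replicate 1 the last 2 were at 0.13 and 0.093, and Pik3cb was at 0.32 without control replicate 2.

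Genes of receptor turnover and other receptor inhibitors had a median of 0.02 over 13 measured genes, 3 apart and higher and 2 apart and lower, which are shares near those of all genes (20.1% and 19.3%). The median was 0.0044 without control replicate 1, 0.087 without induced replicate 1 and 0.033 without control replicate 2. The lower ones were Cblb and Cbl, which encode ubiquitin ligases of activated receptors. Cblb had values of 7.14 and 7.19 in the induced arrays, against 7.44 and 7.51 in the controls (-0.31 ± 0.10, adjusted p = 0.381 in limma). A further Cblb probe set lay lower (-0.25 ± 0.10) and another higher (0.68 ± 0.12, adjusted p = 0.205 in limma), so its direction is uncertain. Cbl had values of 7.47 and 7.60 in the induced arrays, against 7.75 and 7.79 in the controls (-0.23 ± 0.10, adjusted p = 0.524 in limma), and its other probe set had overlapping groups (-0.03 ± 0.11). Lrig2, which encodes a transmembrane protein with leucine-rich repeats, differed by 0.17 ± 0.12, with -0.02 ± 0.14 in its other probe set, and was at 0.077 without control replicate 1, 0.27 without control replicate 2 and 0.11 without induced replicate 1.

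Of the other ErbB receptors and ligands only 2 of 6 had a kept probe set, both neuregulins, which are ligands of Erbb4 and, for some of them, of Erbb3. Nrg4 had values of 4.54 and 4.60 in the induced arrays, against 5.09 and 4.96 in the controls (-0.45 ± 0.10, 1.37-fold lower, adjusted p = 0.268 in limma). The groups lay apart, at a level near the filter, and the other Nrg4 probe set differed by -0.06 ± 0.14. Nrg2 differed by -0.24 ± 0.11 (-0.15 without induced replicate 2), with -0.01 ± 0.10 and -0.06 ± 0.12 in its other probe sets. Both neuregulins thus had lower induced means, where the 5 measured Egfr ligands had higher ones.

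**Figure D3:**
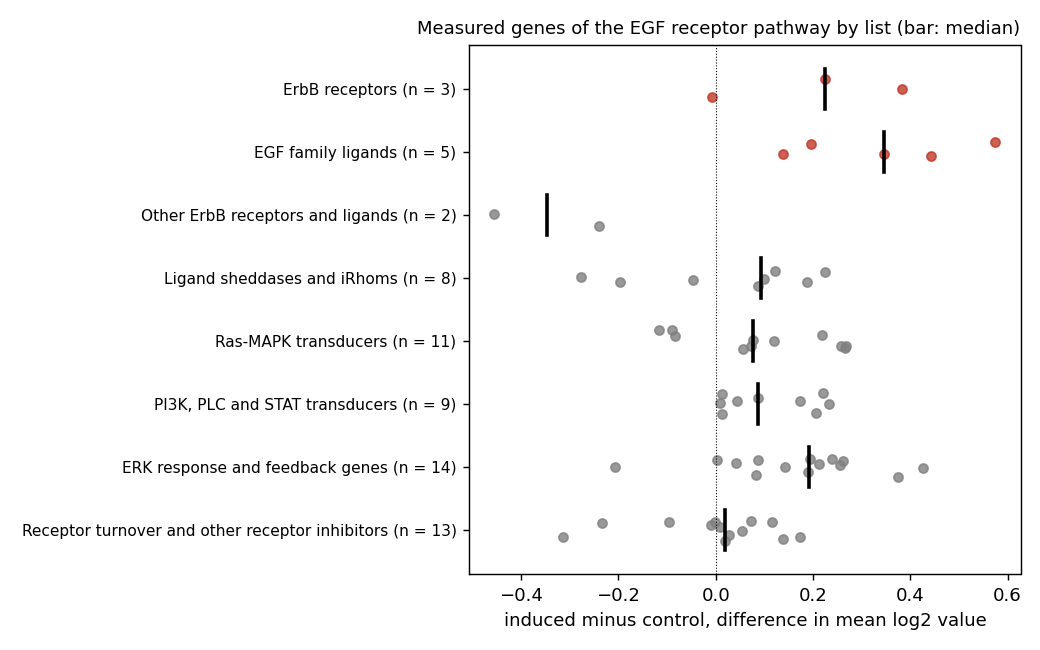
Difference in mean log2 value, induced minus control (horizontal axis), of each measured gene in the pathway lists (rows), with a bar at the list median. The ligands (n = 5) lie wholly to the right of 0 with a median of 0.35, the ERK response genes (n = 14) have a median of 0.19, and the 2 neuregulins lie to the left.

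Markers of the hair follicle moved in the same direction as the ligands. All 6 markers of the inner root sheath and hair shaft had both induced arrays above both controls, against 20.1% of all genes. Their differences were 0.56 to 1.01, with a median of 0.81. Their mean log2 value was 11.08 and 11.25 in the induced arrays, against 10.22 and 10.52 in the controls. Their part in the higher ligand and receptor values was not tested. Of the basal keratinocyte markers 3 of 4 had both induced arrays below both controls, against 19.3% of all genes. Their differences ran from -0.17 to 0.09 (median -0.12). The same held for 3 of 4 suprabasal markers, with small differences of -0.11 to 0.00 (median -0.05). The suprabasal genes had mean log2 values of 13.32 to 14.27, close to the highest value on the arrays, where small shifts are hard to read. Melanocyte markers had a mean log2 value of 8.72 and 9.24 in the induced arrays, against 8.84 and 8.89 in the controls, so that the induced arrays lay on either side of the controls. Dermal fibroblast markers (median -0.11) and endothelial markers (median -0.20) had 3 of 6 and 1 of 4 genes above the filter level. The lists of immune cells and sebaceous gland had medians of 0.00 and -0.02. The sebaceous differences ran from -0.45 to 0.22, with 2 of 4 genes apart and higher and 1 apart and lower. Of the endothelial markers 2 of 4 were apart and lower, and of the immune markers 1 of 6. Melanocyte markers had 1 of 6 apart in each direction and fibroblast markers 0. Of all genes 20.1% were apart and higher and 19.3% apart and lower.

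**Figure D4:**
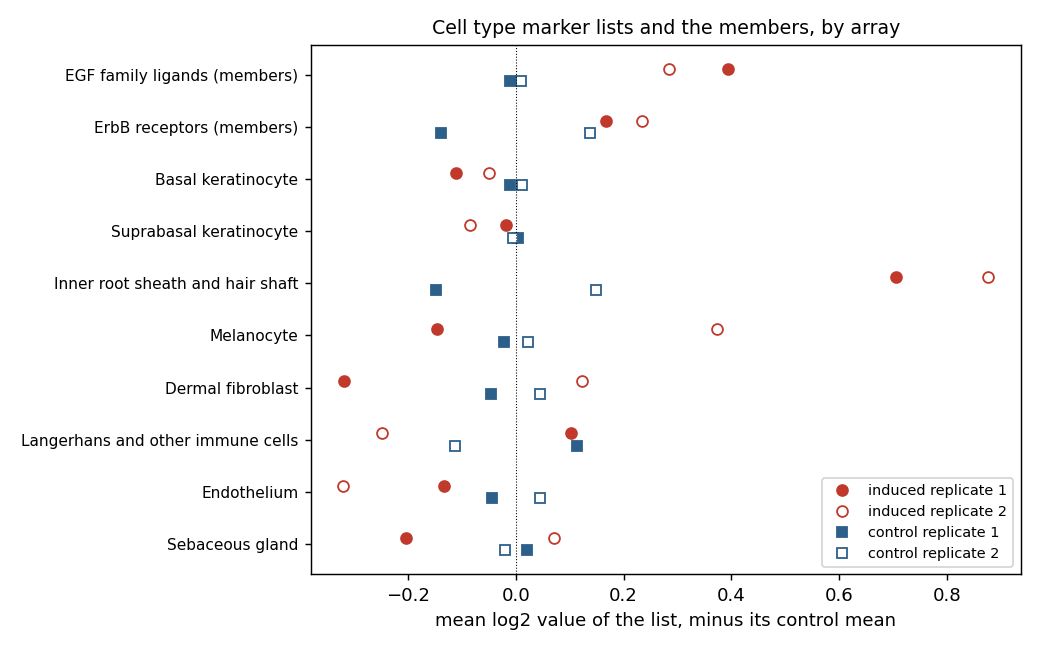
Mean log2 value of each list on each array, minus the list's mean over the control arrays (horizontal axis), for the measured ligands and receptors and for 8 cell type marker lists (rows), with induced arrays as circles and control arrays as squares. The inner root sheath and hair shaft list lies 0.71 and 0.88 to the right in the induced arrays, and the ligands 0.39 and 0.28.

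Ereg, the gene of the family with the largest difference, was set against the other 13488 genes for the likeness of its 4 values, each taken from the gene's own mean. The nearest 3 were A930013F10Rik, Gjb2 and Trps1, with root mean square differences of 0.017, 0.022 and 0.025 log2 units over the 4 arrays. Gjb2, which encodes a connexin of gap junctions, had values of 9.87 and 10.06 in the induced arrays, against 9.37 and 9.46 in the controls. Trps1, a transcription factor gene of hair follicle development, had values of 5.34 and 5.54 in the induced arrays, against 4.83 and 4.98 in the controls. With 4 arrays many genes come close to any pattern, and the likeness is given as a description.

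Promoters were found in the RefSeq table for 7 of the 10 genes. The 250 bases before the start site are shown for Epgn, a ligand with the groups apart, and for Egfr, whose groups overlapped. They are 5′ to 3′ on the plus strand of GRCm38.p6, chr5:91027267-91027516 and chr11:16751953-16752202, with motif matches in capitals. Searched on both strands were the AP-1 letters TGANTCA, the cyclic AMP response element TGACGTCA, the TATA letters TATAAA and the GC box GGGCGG.
Epgn: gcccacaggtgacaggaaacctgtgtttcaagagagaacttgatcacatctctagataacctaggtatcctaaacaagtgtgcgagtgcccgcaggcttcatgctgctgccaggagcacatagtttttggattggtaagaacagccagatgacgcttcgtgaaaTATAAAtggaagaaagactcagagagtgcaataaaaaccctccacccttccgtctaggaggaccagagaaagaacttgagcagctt
Egfr: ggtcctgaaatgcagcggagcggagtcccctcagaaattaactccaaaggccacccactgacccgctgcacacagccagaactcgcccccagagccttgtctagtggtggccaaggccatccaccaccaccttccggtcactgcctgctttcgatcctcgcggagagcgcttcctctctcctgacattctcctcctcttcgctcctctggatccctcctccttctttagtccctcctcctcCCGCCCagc

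The Epgn window held 1 TATA match, 86 to 81 bases before the start, and had a GC content of 46.8%. The Egfr window held 1 GC box, read on the opposite strand, and had a GC content of 60.8%. The windows of Tgfa and Errfi1, whose probe sets with the highest mean also had the groups apart, were searched too. That of Tgfa held GC boxes and no TATA letters, and that of Errfi1 held both. Whether these letters go with the differences was not tested. Of the 32851 windows of this length, 12.4% held the TATA letters, 32.7% a GC box, 6.75% the AP-1 letters and 1.55% the cyclic AMP element. Neither window held the AP-1 or the cyclic AMP letters, which says only that these letters are not in these bases.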

How the data were processed

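RNA of sorted cells (0.5 µg of total RNA each, biotin label) went onto 1 Affymetrix array per sample, per the labels' protocols. The files hold log2 values that the authors made with RMA, per the submitters' processing notes, with no version given. RMA gives the probe intensities of all arrays 1 distribution before summarizing each set, so shifts in a cell's total RNA are invisible. The log2 values were used as deposited.

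The 64 control probe sets were left out. Of the other 45037, the platform annotation gave 34945 a single gene, 932 several and 9160 none; 34741 symbols were updated through the RefSeq table of GRCm38. The 40% of probe sets with the lowest mean over all arrays were left out, and the remaining 27022 were tested with limma 3.58.1 in R 4.3.3 (lmFit, eBayes, two-sided, Benjamini-Hochberg), with 2 residual and 3.82 prior degrees of freedom. Of a gene's kept probe sets, that with the highest mean stands for it. Differences are induced minus control group means on the log2 scale, SE is the model's, and folds are 2 to that power. The number of arrays limits the precision. Tested on 20 simulated data sets of 27022 probe sets, the fit found 1.57% of changes of 1.5-fold, 56.6% of changes of 2-fold and 96.4% of changes of 4-fold. Named are all members, the 3 genes per list with the largest absolute statistic (Spred1 was named after its value was seen) and the 3 genes nearest to the member with the largest difference. Members and lists were chosen with earlier results of these data known. Alternatives are in the closing section.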

Additional observations from a re-analysis of the deposited data

Results flagged for a closer look

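The Y-linked gene Eif2s3y, which is outside the EGF receptor family, reached a log2 value of 9.38 in induced replicate 1, above its level in both control arrays (2.82 and 2.52) and in induced replicate 2 (2.72). Its part in the members' values was not tested.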

How the results depend on the processing

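The values were recomputed with no level filter or a stricter one (60th percentile), after another round of quantile normalization, after median centring, with trend and robust variance priors, with a gene's probe sets averaged, with a replicate block, and without each array in turn. No member had an adjusted p under 0.05 in limma in any of these. Over all probe sets the count past that threshold was 126 with trend and robust, where Ereg had an adjusted p of 0.0726, and 0 to 6 with an array left out, the 6 without induced replicate 2. With the replicate block it was 0 (lowest adjusted p = 0.395). The labels do not say that replicate numbers mark a litter, so the numbers were not taken as pairs. Deviations of same-numbered arrays from their group means had a correlation of -0.10. With 2 arrays per group this cannot show whether the animals were paired by litter. Ereg, Tgfa, Epgn, Hbegf, Erbb2, Erbb3 and Errfi1 kept higher induced means throughout as genes. The ligand median ran from 0.20 to 0.35 and the receptor median from 0.11 to 0.34. With probe sets averaged, Egfr was 0.012, Grb2 -0.0058 and Cblb 0.037, and the median of the neuregulins was -0.18. With an array left out, the signs of some member probe sets turned. The lowest and highest were then -0.13 and 0.11 for Egfr 1435888_at, -0.16 and 0.19 for Egfr 1424932_at, -0.070 and 0.16 for Egfr 1460420_a_at, -0.24 and 0.20 for Egfr 1451530_at, -0.15 and 0.13 for Egfr 1454313_at, -0.11 and 0.25 for Erbb3 1452482_at, -0.060 and 0.27 for Hbegf 1418349_at, -0.030 and 0.0089 for Tgfa 1450421_at, -0.060 and 0.34 for Btc 1435541_at, and -0.026 and 0.11 for Errfi1 1419816_s_at. Chosen after seeing the data, the count of member probe sets with induced above control was 10 to 13 with an array left out, against 7 with all arrays. With 3 arrays the spread came from the group with 2, and the lone array was taken to vary as much. The cause of these changes was not tested, except that fewer arrays overlap less often by construction.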
